A study of Mus musculus with 8 samples.

Results

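Adipocyte lipid and adipokine genes were followed in nuclei of the mouse gastrocnemius muscle of the calf, as a set of 10 genes chosen for their known roles in fat cells (Adipoq, Lep, Plin1, Plin4, Cidec, Pnpla2, Lipe, Lpl, Scd1 and Fasn) out of 21110 gene symbols used. All 10 were named in all 8 count matrices. Single-nucleus RNA sequencing was made on 2 libraries of each of 4 groups of wild-type C57BL/6 mice: Old (aged 20 months), Young (3 months), Running (11 months at the start, then 2 months of treadmill exercise) and Sedentary (11 months at the start, not exercised). Replicate 1 of each group was taken to come from 10x Genomics droplets and replicate 2 from another droplet system (called the second set). The labels do not name the system of the second set, which was taken from the study's methods. No source used here says how many animals went into a library or that the libraries of a group came from separate animals. The p-values therefore measure the spread between libraries. The Old and Young pair addresses ageing, and the Running and Sedentary pair addresses exercise.

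A fat cell stores triglyceride in a single large lipid droplet. Fatty acids enter after lipoprotein lipase has cut them from blood lipoproteins, or are made from glucose by fatty acid synthase and then desaturated, and they leave again when lipases attack the droplet behind its perilipin coat. Adipocytes also secrete hormones such as adiponectin and leptin. In skeletal muscle, fat cells lie between the fibres, and the fibres themselves take up and burn fatty acids, so some of these genes are known to be used by both cell types.

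The UMI totals (unique molecular identifiers, each counting 1 captured RNA molecule) were between 23390969 and 44454427 in the 10x libraries and between 4839878 and 9278034 in the second set, and 64803 of 65280 nuclei passed the filters. Pairs of 10x libraries shared 30 to 46 cell barcodes. Old replicate 2 stood apart, since 4067 of its 4772 nuclei fell in clusters left unnamed and only 37 in the Type IIb-like class, against 460 to 2912 in the other second-set libraries. Sedentary replicate 1 was the shallowest 10x library, with a median of 1664 UMIs per nucleus against 2790 to 3001 in the other 3. The values are given per library in the main, so that they can be read without these 2 libraries, but every Running against Sedentary ratio in adipocyte-like nuclei rests on Sedentary replicate 1.

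Nuclei were grouped by clustering with the 10 genes left out, and a cluster was called adipocyte-like from 10 other marker genes, among them Pparg, the master regulator of adipocyte identity, and Adrb3, an adrenergic receptor of fat cells. In the 10x set 9 of the 10 markers were at least 2-fold higher in that cluster than in other nuclei. Pparg was at 2436.5 CPM (UMIs of a gene for every 1000000 UMIs of a sum) against 27.4, and Adrb3 at 462 CPM against 1.57. The cluster held 363 nuclei of Old, 223 of Young, 295 of Running and 500 of Sedentary replicate 1. In the second set 8 of the 10 markers passed the same limit, but the cluster held 207 nuclei of Old replicate 2 and only 4, 11 and 8 of the Young, Running and Sedentary libraries, so levels in adipocyte-like nuclei are described mainly for the 10x set.

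The genes separated by how much of their signal lay in adipocyte-like nuclei. These nuclei held 4.07% of all UMIs of the 10x set. They held 89.0% of the UMIs of Plin1, the perilipin that coats the large droplet of white fat cells, 88.9% of Cidec, which fuses droplets, 86.4% of Lep (leptin) and 81.3% of Adipoq (adiponectin). Fasn, fatty acid synthase, had 73.7% there, and Scd1, stearoyl-CoA desaturase, 68.3%, but the Fasn share was 81.2% in Running and only 32.5% in Old, 34.6% in Young and 40.4% in Sedentary, below that of Lipe in those 3 libraries. The Scd1 share was lowest in Young, at 47.3%. Lipe, hormone-sensitive lipase, had 52.7%, and the remaining 3 had less than that: Pnpla2, adipose triglyceride lipase, 38.5%, Plin4, a perilipin of small droplets, 32.4%, and Lpl, lipoprotein lipase, 31.7%. In the second set the same shares were lower, at 35.6% for Cidec, 34.5% for Lep, 30.4% for Plin1, 13.1% for Adipoq, 4.45% for Lpl, 3.28% for Plin4 and 1.96% for Pnpla2, beside 1.0% of all UMIs. Old replicate 2 held 207 of the 230 adipocyte-like nuclei behind these values, and the libraries differed widely, from 0.0985% to 17.3% for Lpl and from 0.375% to 22.9% for Plin4. Without the shallow Sedentary replicate 1, the lowest 10x library share of Adipoq was 81.1% in place of 67.4%.

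**Figure D1:**
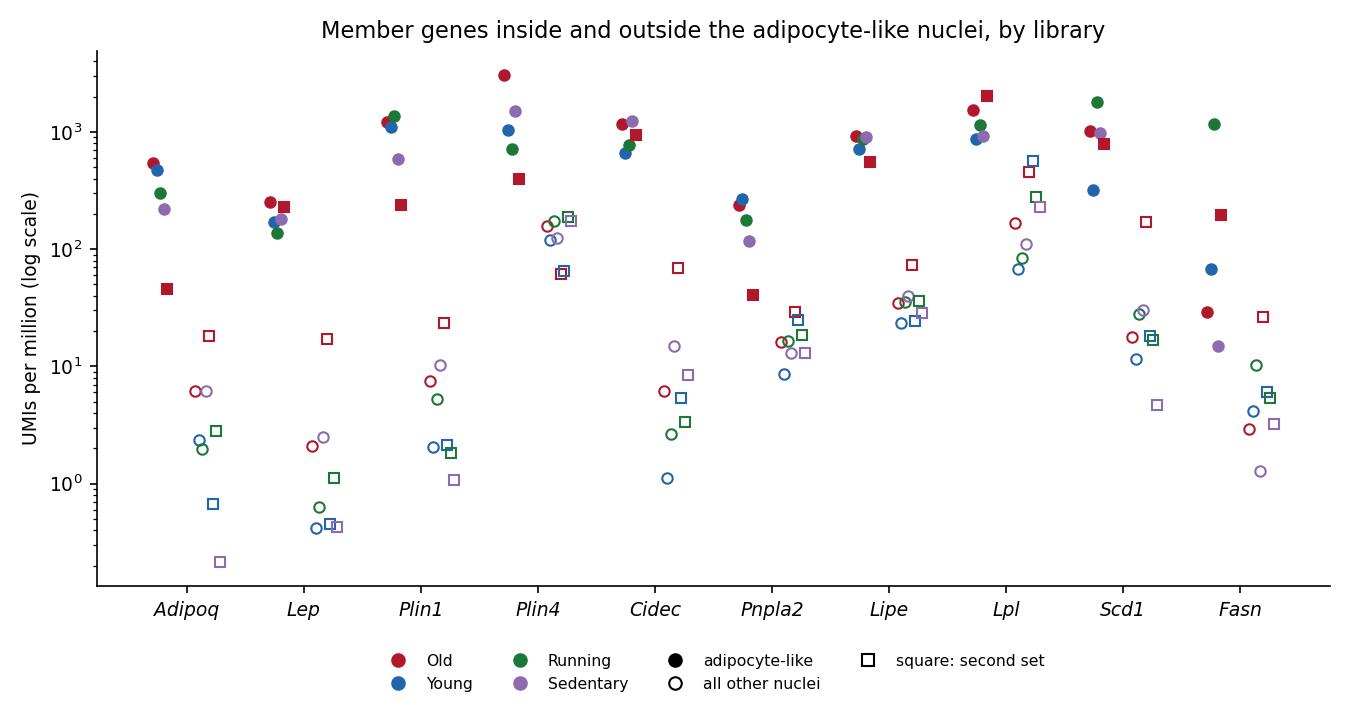
Level of each of the 10 genes in CPM (log axis) in adipocyte-like nuclei (filled) and in all other nuclei (open), 1 point per library, with circles for the 10x set and squares for the second set, and only for sums of at least 20 nuclei. Filled and open points lie far apart for Adipoq, Lep, Plin1 and Cidec in the 10x set, lie closer for Lpl, Plin4 and Pnpla2, and approach each other in Old replicate 2, where Adipoq was at 45.6 against 18.2 CPM.

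Both hormones were far higher inside the adipocyte-like class than outside it in the 10x libraries. Adipoq stood at 547 CPM in Old, 478 CPM in Young, 302 CPM in Running and 221 CPM in Sedentary replicate 1 inside the class, and at 6.19, 2.35, 1.98 and 6.17 CPM outside it. The nuclei outside the class were lower by 35.8-fold in Sedentary and by 203-fold in Young, the ends of the range over the 4 libraries. Lep stood at 251, 169, 137 and 180 CPM inside and at 2.08, 0.419, 0.636 and 2.51 CPM outside. Leptin signals to the brain on the size of the fat stores, and adiponectin acts on muscle and liver through Adipor1 and Adipor2. Of these receptors Adipor2 was itself higher in adipocyte-like nuclei, at 1655 against 69.7 CPM, while Cdh13, which binds adiponectin at the cell surface, was at 249 against 1542 CPM and highest in slow myonuclei at 3127 CPM.

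Among the droplet proteins, Plin1 and Cidec followed the hormones. Plin1 was at 1207, 1113, 1382 and 589 CPM inside the class in Old, Young, Running and Sedentary replicate 1, and at 7.54, 2.04, 5.25 and 10.4 CPM outside. Cidec was at 1166.5, 659, 771 and 1241 CPM inside and at 6.16, 1.13, 2.66 and 15.0 CPM outside. Plin4 differed from both, since nuclei outside the class still had 158, 119, 175 and 125 CPM, against 3059, 1031, 722 and 1518 CPM inside. Per nucleus the set marked the class clearly in the 10x libraries: the median adipocyte-like nucleus had UMIs of 8, 8, 9 and 5 of the 10 genes, and 5 or more were found in 90.9%, 88.8%, 96.3% and 54.4% of nuclei, against at most 0.178% of nuclei outside the class. In the 207 adipocyte-like nuclei of Old replicate 2 the median was 3 genes, and 15.0% had 5 or more.

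The counts outside the class were compared with Adipoq, a hormone made by fat cells. If every gene outside the class were in the ratio to Adipoq that it has inside, the count divided by the scaled amount would be 1. Over the 4 10x libraries that quotient was 0.539 for Plin1, 0.541 for Cidec and 0.688 for Lep, 1.56 for Fasn and 2.02 for Scd1. It was 3.91 for Lipe, 6.97 for Pnpla2, 9.09 for Plin4 and 9.38 for Lpl. Running set the Fasn quotient, since it held 1897 of the 2052 Fasn UMIs in the class. Fasn had 23.1 UMIs outside for each 100 inside in Running against 17.3 of Adipoq. It had 208 against 23.3 in Old, 189 against 15.2 in Young and 147 against 48.4 in Sedentary. Other quotients also varied between libraries. Plin4 had 638 against 17.3 of Adipoq in Running and 143 against 48.4 in Sedentary. Scd1 had 111 against 15.2 in Young and 54.4 against 48.4 in Sedentary. In the second set the quotient was 3.23 for Lpl, 4.44 for Plin4 and 7.52 for Pnpla2, but 0.925 for Lipe. These values rest on 17 Adipoq and 11 Pnpla2 UMIs inside the class, of which Old replicate 2 gave 10 and 9. Young replicate 2 had 0 Adipoq UMIs there. Lpl, Plin4 and Pnpla2 thus had more UMIs outside the class than the Adipoq ratio gives in the 10x set. The second set had the same direction on few counts. The 3 genes differed in which nuclei held them. Nuclei of unnamed clusters in Sedentary replicate 1 also had 87.6 CPM of Cidec, 50.7 of Plin1 and 22.0 of Adipoq.

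Lpl varied most between the classes of myonuclei, and in the 10x set its order was that of the fibre types from fast to slow. In Type IIb-like nuclei, those of the fastest fibres, it was at 65.6 CPM in Old, 24.9 CPM in Young, 29.2 CPM in Running and 46.3 CPM in Sedentary replicate 1. In Type IIa/IIx-like nuclei of the same libraries it was at 453, 386, 238 and 178 CPM, above the Type IIb-like value in 4 of 4 libraries. Slow-like nuclei had enough nuclei in 2 of the libraries, where it was at 839 CPM in Old and 378 CPM in Sedentary. The second set had the same order in its pooled sums, at 112 CPM in Type IIb-like, 968 in Type IIa/IIx-like and 1135 in Slow-like nuclei, with Slow-like above Type IIa/IIx-like nuclei in 3 of 4 libraries. Myh4, the Type IIb myosin, was the highest myosin in all 3 classes there, so these names do not settle the fibre type. The pools also mix libraries, since Young replicate 2 gave 1082 of the Slow-like nuclei and Sedentary replicate 2 gave 2912 of the Type IIb-like nuclei. Against the Adipoq ratio the 10x Lpl count was 31.1-fold in Type IIa/IIx-like nuclei, and 79.1-fold in Slow-like nuclei, where only 4 Adipoq UMIs stand behind it. Endothelial-like nuclei had 284, 225, 253 and 274 CPM of Lpl. Gpihbp1, which anchors lipoprotein lipase to the capillary wall, was highest in those nuclei at 144 CPM and at 0.338 CPM in adipocyte-like nuclei.

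Plin4 was also higher in myonuclei than in other nuclei outside the adipocyte-like class. Pooled over the 10x set it was at 175 CPM in Type IIb-like, 214 in Type IIa/IIx-like and 237 in Slow-like nuclei, and at 52.3 CPM in fibro-adipogenic progenitor-like (FAP-like), 63.4 in macrophage-like and 76.0 in endothelial-like nuclei. FAP-like nuclei were below Type IIb-like nuclei in 4 of 4 libraries, at 68.7, 23.7, 60.5 and 58.4 CPM against 193, 155, 204 and 125 CPM. Pnpla2, which starts the breakdown of triglyceride, was at 38.1, 26.2, 40.4 and 20.6 CPM in Type IIa/IIx-like and at 12.4, 7.70, 12.7 and 8.52 CPM in Type IIb-like nuclei, again higher in 4 of 4 libraries. Lipe was at 24.0 CPM in FAP-like, 30.3 in Type IIb-like, 40.7 in Type IIa/IIx-like, 54.1 in Slow-like and 83.2 CPM in endothelial-like nuclei. The clusters and these values come from the same nuclei, so the order of classes is a description without a test.

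**Figure D2:**
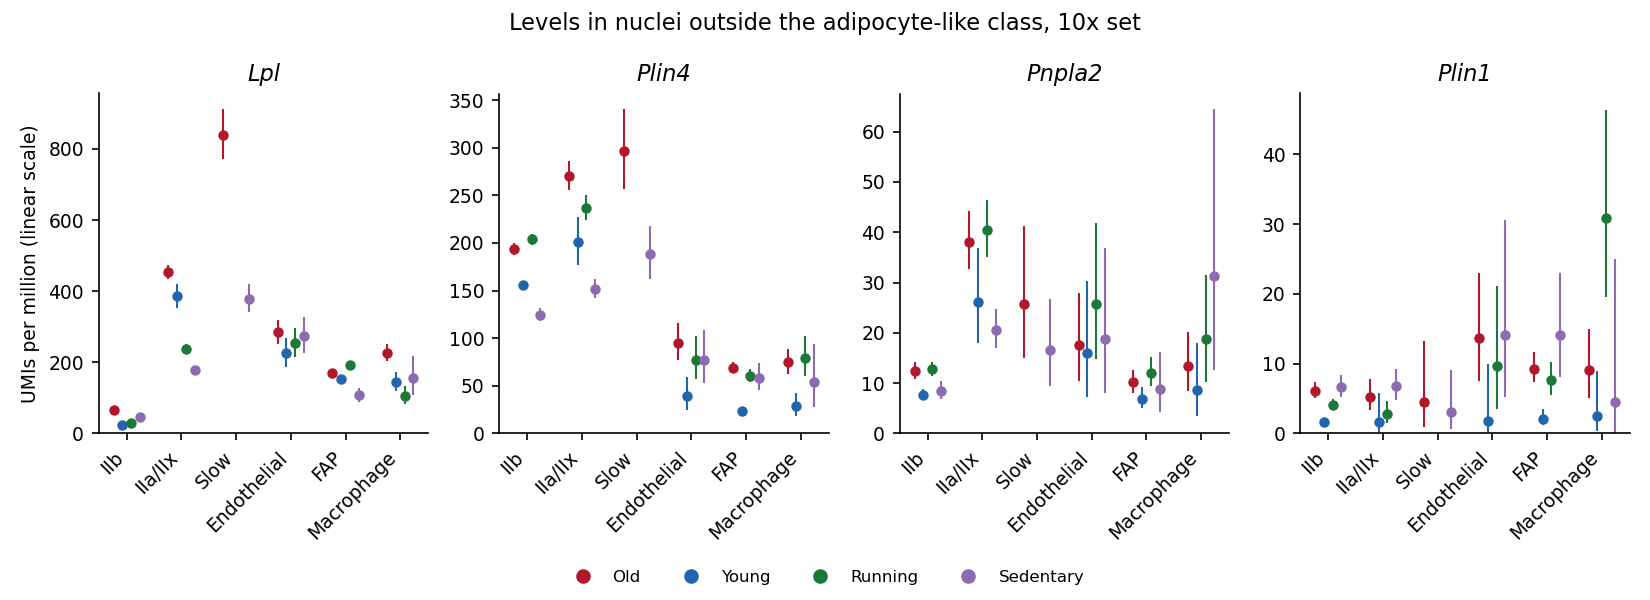
Levels of Lpl, Plin4, Pnpla2 and Plin1 in CPM (linear axes of different height, from 0) in 6 classes of nuclei outside the adipocyte-like class, 1 point per 10x library with its exact 95% Poisson interval, which covers counting error only. Lpl climbs from IIb to IIa/IIx to Slow nuclei within each library that has them, while Plin1 stays at or under 30.9 CPM in all 6 classes.

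The genes whose levels ran most alike over 57 sums of a class in a 10x library, among 9974 genes, are given as a description, since these sums share libraries and depth. Plin4 was most like Acsl1, a fatty acid activating enzyme and one of the adipocyte markers (Pearson r of 0.92), then Ces1d (0.87) and Chp1 (0.82). Lpl was most like Dgat2 (0.78), the last enzyme of triglyceride synthesis, and Ccdc80 (0.71) was also among the nearest to it. Pnpla2 was most like Acsl1 (0.79), Plin4 (0.75) and Chpt1 (0.75), and Adipoq was most like Sik2 (0.80), Mc2r (0.79) and Gm35552 (0.78).

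Partners of the 10 genes fell into the same kinds. Mgll, which completes triglyceride breakdown, was at 696 CPM in adipocyte-like and 47.7 CPM in other 10x nuclei, while Fitm1, a droplet protein of muscle, was at 5.24 against 39.3 CPM. Gpam, the first enzyme of triglyceride synthesis, was at 562 against 191 CPM, and Lpin1 at 364 against 448 CPM. Cd36, a fatty acid transporter, was at 1234 CPM in adipocyte-like and 1442 CPM in endothelial-like nuclei, and Vldlr at 67.6 against 176 CPM outside. Acaca, the rate-limiting enzyme of fatty acid synthesis, was at 3608 against 144 CPM, and Mlxipl, a glucose-responsive regulator of the pathway, at 806 against 268 CPM. The Acaca level pools adipocyte-like nuclei of libraries that differed, at 702 in Old, 2276 in Young, 10200 in Running and 627 CPM in Sedentary replicate 1. Among regulators Ebf2 was at 342 against 312 CPM and Cebpb at 90.9 against 45.5 CPM, and among other secreted or adipose genes Nnat was at 1472.5 against 22.1 CPM and Nampt at 170 against 171 CPM. Of the brown and beige fat markers, 3 of 6 were named in all files, with Kcnk3 at 26.9 and Dio2 at 1.01 CPM in adipocyte-like nuclei.

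Of the 10 genes, Fasn gave the largest difference between groups inside the adipocyte-like nuclei. It had 1897 UMIs in 295 nuclei of Running replicate 1 (1175 CPM) and 19 UMIs in 500 nuclei of Sedentary replicate 1 (15.0 CPM), a ratio of 78.2 with a 95% counting interval of 49.9 to 130. Old replicate 1 had 29.0 and Young replicate 1 had 67.6 CPM, so Running was high and the other 3 were low. A Fasn UMI was found in 90.5% of the Running nuclei (95% Wilson interval 86.6 to 93.4%), with a median of 6 UMIs per nucleus and at most 28, against 3.20% (1.98 to 5.13%) of the Sedentary, 11.6% of the Old and 26.9% of the Young adipocyte-like nuclei. With each nucleus thinned to 500 UMIs the shares were 45.1% in Running and 1.0% in Sedentary, beside 0.671% and 0.110% of the nuclei outside the class. The tenth of Running nuclei with the most Fasn held 27.2% of its UMIs, so the signal was not held by a few nuclei.

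The rest of the fatty acid synthesis pathway was higher in the same nuclei. Of the 9 genes in the de novo lipogenesis list all 9 were compared, and all 9 were at least 2-fold higher in Running than in Sedentary adipocyte-like nuclei, with a median log2 ratio of 4.02, while 9.89% of the 4531 genes compared were at least 2-fold higher and their median was 0.09. Genes were compared if they reached 50 CPM in 1 of the 2 libraries. Acly, Elovl6, Scd2, Thrsp and Srebf1 were under that limit in Sedentary, so they entered only through Running. The list was fixed with earlier results of these data known and Fasn is no member of it, so the count is a description only. Acly, which makes acetyl-CoA in the cytosol, stood at 1039 against 24.5 CPM, a ratio of 42.4 (29.7 to 62.6). Acaca stood at 10200 against 627 CPM (16.3, 15.1 to 17.5) and Elovl6, which lengthens palmitate, at 1199 against 39.6 CPM (30.3, 22.9 to 41.0). Me1, a source of NADPH for the pathway, was 13.6-fold higher, Thrsp 21.3-fold and Scd2 24.5-fold. The regulators Srebf1 and Mlxipl were 4.69-fold and 3.35-fold higher, and Acacb 5.33-fold. Among the 5 triglyceride synthesis genes compared 3 were at least 2-fold higher and none was 2-fold lower, while Nnat stood at 88.0 against 2384 CPM.

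**Figure D3:**
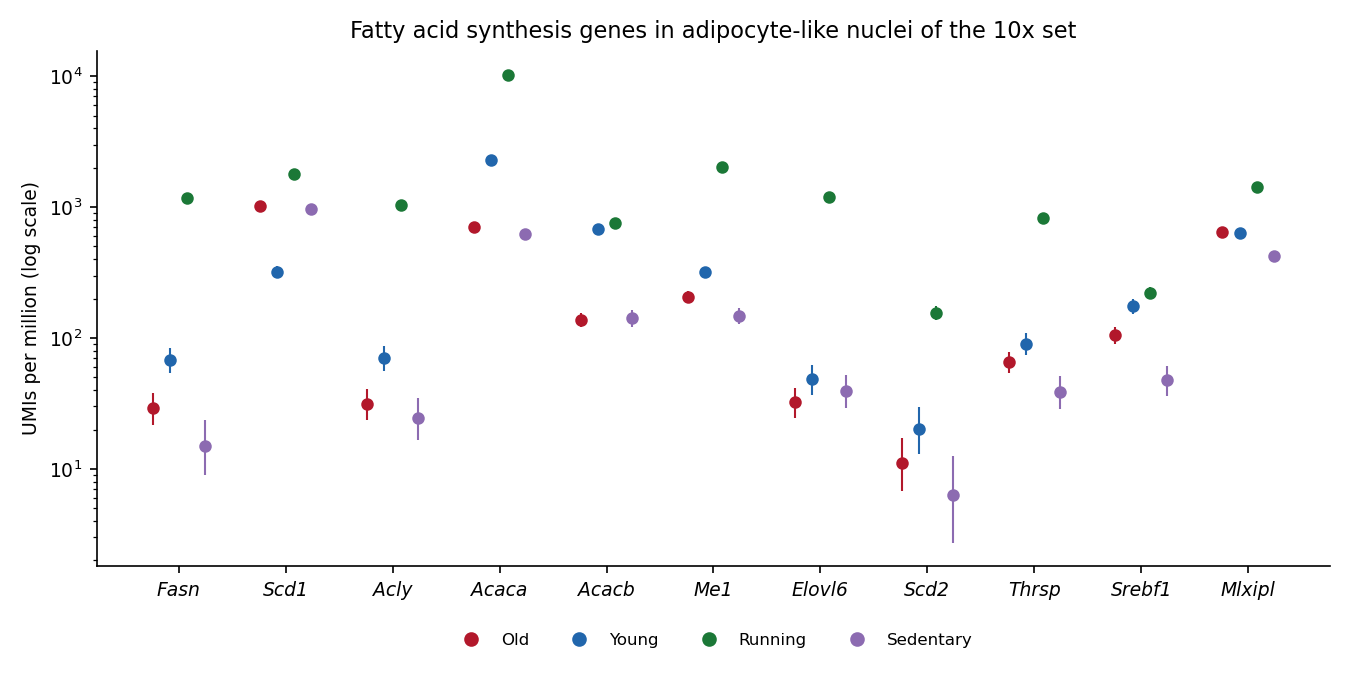
CPM (log axis) of Fasn, Scd1 and the 9 listed fatty acid synthesis genes in adipocyte-like nuclei of the 10x set, 1 point per library with its exact 95% Poisson interval (counting error only). The Running point is the highest of the 4 for each of the 11 genes, by a wide margin for Fasn, Acly and Elovl6 and by a small one over Young for Acacb.

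This difference compares 1 library with 1, so it carries no test of exercise, and the second set cannot check it. There the adipocyte-like nuclei of Running held 3 Fasn UMIs in 11 nuclei (147 CPM) and those of Sedentary 4 UMIs in 8 nuclei (381 CPM). The Running to Sedentary log2 ratio of Fasn in the 10x set was 6.29, and it was 6.45 in nuclei with at least 2000 UMIs (273 and 239 nuclei) and 6.20 in nuclei with at least 3 of the adipocyte markers (292 and 421), 2 alternatives chosen after seeing the data. A further random thinning to 500 UMIs gave 7.37, resting on 2 UMIs in Sedentary. The epithelial and sebaceous markers, which would mark other cells rich in Scd1 and Fasn, were at 0 UMIs for all 5 measured in the Running adipocyte-like nuclei. They summed to only 28 UMIs in all nuclei of that library, and Krt14 and Krt79 of the list were not named in all files. Whether such cells add to the Fasn value was not tested.

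The promoter letters of Fasn and of the 2 listed genes with the next largest ratios that have a RefSeq entry, Acly and Elovl6, are shown because these 3 genes differed most between the Running and Sedentary adipocyte-like nuclei. Each run is the 250 bases before the RefSeq transcription start on build GRCm38.p6, 5′ to 3′ on the gene's strand, with CCAAT boxes of either strand in capitals.
Fasn, chr11:120824548-120824797, minus strand: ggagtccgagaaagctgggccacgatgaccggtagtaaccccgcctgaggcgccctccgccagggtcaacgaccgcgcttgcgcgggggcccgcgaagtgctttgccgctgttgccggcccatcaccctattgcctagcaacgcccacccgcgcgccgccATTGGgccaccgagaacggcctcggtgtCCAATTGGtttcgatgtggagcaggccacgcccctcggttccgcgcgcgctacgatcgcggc
Acly, chr11:100528001-100528250, minus strand: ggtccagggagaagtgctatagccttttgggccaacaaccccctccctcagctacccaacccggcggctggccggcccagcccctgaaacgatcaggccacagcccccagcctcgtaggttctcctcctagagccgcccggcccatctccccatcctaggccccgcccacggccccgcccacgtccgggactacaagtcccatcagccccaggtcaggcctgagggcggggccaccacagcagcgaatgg
Elovl6, chr3:129532136-129532385, plus strand: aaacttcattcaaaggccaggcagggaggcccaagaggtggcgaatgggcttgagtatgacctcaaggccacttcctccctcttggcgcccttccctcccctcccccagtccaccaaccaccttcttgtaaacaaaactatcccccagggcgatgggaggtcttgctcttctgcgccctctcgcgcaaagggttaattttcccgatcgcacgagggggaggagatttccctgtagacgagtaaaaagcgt
The letters searched on both strands were CCAAT, found in 33.9% of the 32851 promoters of that length, the sterol regulatory element TCACNCCAC in 1.05%, the E-box CACGTG in 6.02% and a nuclear receptor direct repeat with 1 base between the repeats in 0.0335%. The Fasn run had 3 CCAAT matches, of which 2 overlap by 2 bases, and no match of the other 3. Neither Acly nor Elovl6 had a match in these 250 bases. Among the 8 listed genes with an entry 5 had CCAAT in at least 1 promoter, and among the 8 members with an entry 3 had it, which are descriptions only.

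The other members differed less between the 10x libraries. Scd1 was at 1018 CPM in Old, 322 CPM in Young, 1802 CPM in Running and 973 CPM in Sedentary adipocyte-like nuclei, 3.16-fold higher in Old than in Young (2.84 to 3.53) and 1.85-fold higher in Running than in Sedentary (1.73 to 1.98). Plin4 was 2.97-fold higher in Old than in Young (2.79 to 3.16) and lower in Running than in Sedentary (ratio 0.476, 0.442 to 0.512). Plin1 was 2.34-fold higher in Running than in Sedentary (2.16 to 2.55) but nearly level between Old and Young (1.08, 1.01 to 1.16). Lpl was 1.77-fold and Cidec 1.77-fold higher in Old than in Young, Lipe had a ratio of 1.31 and Pnpla2 of 0.893 (0.772 to 1.03), whose interval includes 1. Fasn had a ratio of 0.428 (0.297 to 0.613), and of the 7 lipogenesis genes compared 3 were at least 2-fold lower in Old than in Young and none was 2-fold higher, with a median log2 ratio of -0.74. In Old against Young 2 of the 10 members were at least 2-fold higher, where 9.95% of 4402 genes were, and 1 was at least 2-fold lower, where 5.09% were. In Running against Sedentary 2 were higher (background 9.89%) and 1 was lower, where 10.6% of 4531 genes were. Fasn was under the limit of 50 CPM in Old and in Sedentary, so it entered these counts only through Young and Running. Among the lipogenesis genes Acly entered the Old against Young count only through Young, at 31.2 CPM in Old and 70.0 CPM in Young. These counts are descriptions only.

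**Figure D4:**
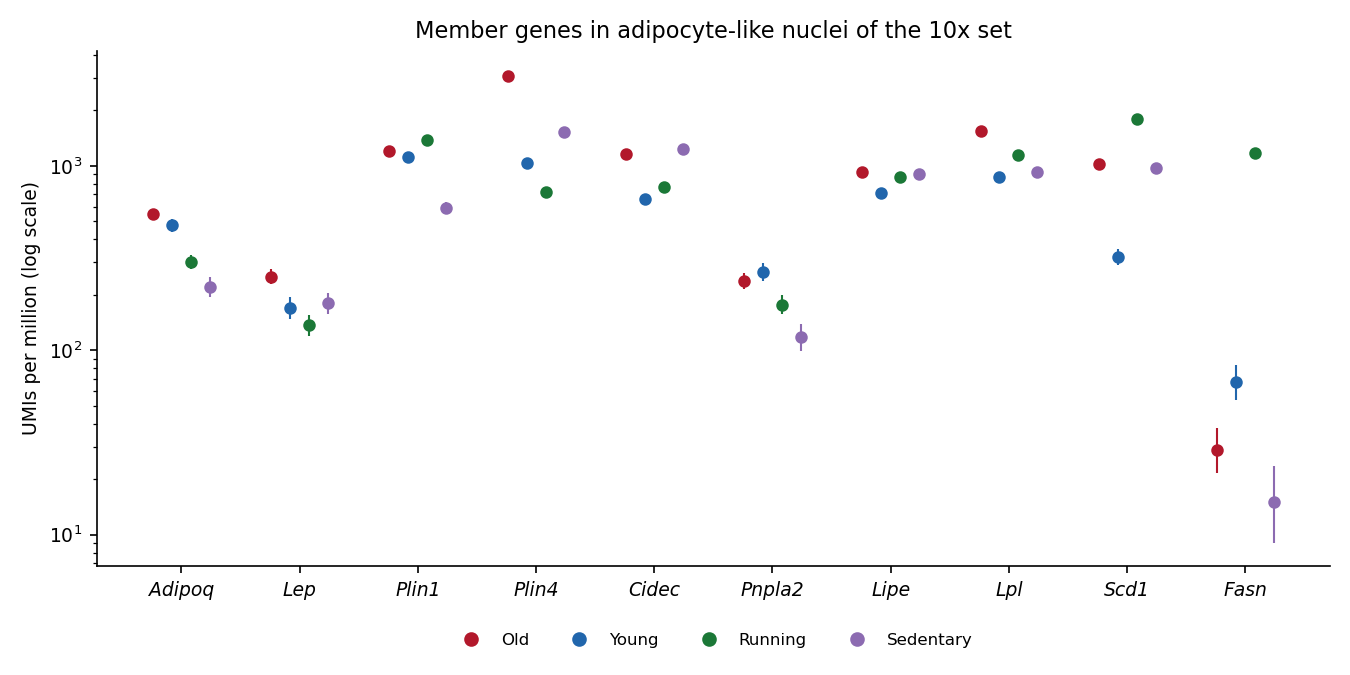
CPM (log axis) of the 10 genes in adipocyte-like nuclei of the 10x set, 1 point per library with its exact 95% Poisson interval (counting error only). Plin1 runs from 589 to 1382 CPM across the 4 libraries, whereas Fasn runs from 15.0 CPM in Sedentary to 1175 CPM in Running.

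The intervals above cover counting error only, and the depth of the nuclei moved with one of the pairs. The Sedentary adipocyte-like nuclei had a median of 1889.5 UMIs, against 4561 (Old), 5306 (Young) and 4764 (Running). With each nucleus thinned to 500 UMIs the Running to Sedentary log2 ratio of Lep went from -0.39 to 0.59, on 24 and 27 UMIs, but the thinning behind the shares above had Lep lower in Running, at 102 against 172 CPM on 15 and 43 UMIs, so its direction was not settled. In nuclei with at least 2000 UMIs the ratio was -0.58 for Lep and -0.13 for Lipe, against -0.39 and -0.061 in all adipocyte-like nuclei.

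Fasn was higher outside the adipocyte-like nuclei of Running replicate 1 as well, at 10.3 CPM against 1.28 in Sedentary, 2.92 in Old and 4.16 in Young replicate 1. Within the Running library, Type IIb-like nuclei had 10.6 Fasn UMIs for each 100 in adipocyte-like nuclei, and 9.65 of Adipoq, 5.43 of Lep, 4.75 of Plin1 and 4.18 of Cidec. In that library the Fasn value was close to that of Adipoq, but it was 48.1 against 7.83 in Old, 28.6 against 8.42 in Young and 63.2 against 19.4 in Sedentary, on 12 to 25 Fasn UMIs in the Type IIb-like nuclei. In Running, Lpl had 40.7, Lipe 65.0, Pnpla2 115 and Plin4 452 UMIs for each 100. Scd1 lay between, at 20.3.

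Over all nuclei, where more adipocyte nuclei and more RNA in each cannot be told apart, the 10 genes were tested with edgeR across the 8 libraries. Cidec was at 59.9 CPM in Old and 21.8 in Young replicate 1, and at 108 in Old and 5.73 in Young replicate 2, so both Old libraries were above both Young libraries. It differed by 2.75 on the log2 scale (SE 0.75, edgeR adjusted p = 0.693). Lep was at 13.6 and 5.73 CPM in the 10x libraries of Old and Young and at 26.4 and 0.45 CPM in the second set, and differed by 3.48 on the log2 scale (SE 1.20, edgeR adjusted p = 0.693). Adipoq differed by 2.28 (SE 1.0), Plin1 by 2.07 (SE 0.76) and Scd1 by 2.48 (SE 1.01), all with the same edgeR adjusted p of 0.693. Every estimate of the 10 was higher in Old, where 56.2% of the 20322 genes tested were. The median of the members was 1.5 on the log2 scale against 0.19 over all genes, and 0 of 10 were called, where 0% of those genes were. At an unadjusted p under 0.05, 5 of the members and 557 of the genes (2.74%) passed.

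These differences were larger in the second set than in the 10x set for the genes most held in adipocyte-like nuclei. The log2 difference of Cidec was 1.41 between the 10x libraries and 4.01 between those of the second set, that of Adipoq 0.81 and 3.61, and that of Lep 1.12 and 4.24. Lpl went the other way, at 1.32 and -0.12. Old replicate 2 held 207 adipocyte-like nuclei and Young replicate 2 held 4. Leaving out Old replicate 2 gave 1.06 for Cidec, 0.94 for Adipoq, 1.11 for Lep, 0.39 for Plin1 and 0.24 for Scd1, and that of Fasn turned to -1.16. Without Sedentary replicate 1, a library outside this comparison but in the fit, the Cidec difference was 2.57 and passed (edgeR adjusted p = 0.0287). The 5 measured epithelial and sebaceous markers summed to 35.5 CPM in Old replicate 2 and 15.3 CPM in Old replicate 1, against 0.38 to 5.06 CPM in the other 6 libraries, with none at 0 in the Old libraries and Krt8 at 0 in Young replicate 1. Their part in the Scd1 and Fasn values of Old was not tested.

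In Running against Sedentary, 6 of the 10 estimates were higher, where 46.5% of the 20322 genes tested were. Again 0 of 10 were called, where 0% of genes were. At an unadjusted p under 0.05, 1 of the members and 98 of the genes passed. Fasn was at 53.0 CPM in Running and 2.03 in Sedentary replicate 1, and at 5.75 and 4.07 CPM in replicate 2, so the 10x libraries were far apart and those of the second set were not. It differed by 3.44 on the log2 scale (SE 1.29, adjusted p = 1.0 in edgeR), and without Running replicate 1 it was 0.40. With only the 4 libraries of the comparison in the fit it was 3.03 (SE 0.54, edgeR adjusted p = 3.3e-05), and without Sedentary replicate 2, where 1 Sedentary library is assumed to vary like the others, it was 3.98 (edgeR adjusted p = 0.0225). Cidec was the member that was lower in Running in both sets, at 30.8 against 81.9 CPM and at 5.89 against 11.4 CPM, and differed by -1.21 on the log2 scale (SE 0.70, edgeR adjusted p = 1.0).

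**Figure D5:**
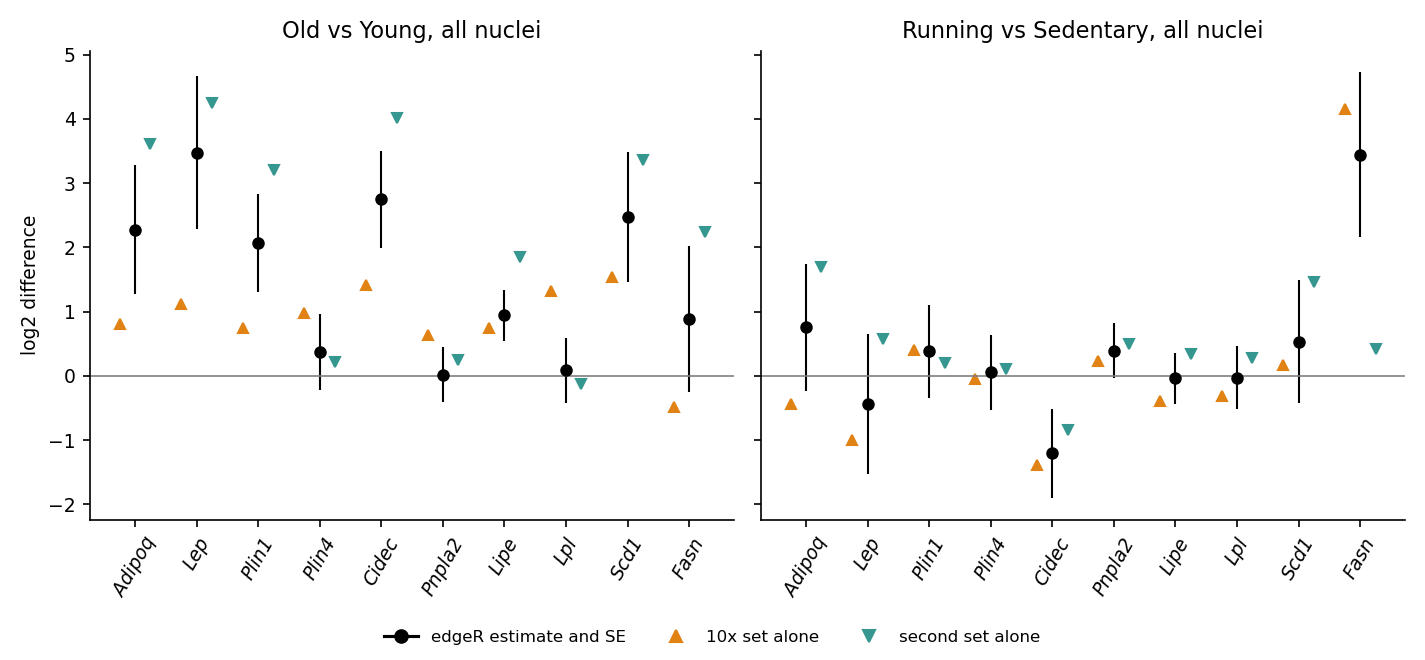
Log2 difference of each gene in sums over all nuclei for Old against Young and Running against Sedentary. Black points are edgeR estimates with their SE over 8 libraries and triangles are the difference of 1 library from 1 within the 10x or the second set. The second-set triangle lies above the 10x triangle for Adipoq, Lep, Plin1, Cidec, Scd1, Fasn and Lipe in Old against Young, and the Fasn difference of Running lies in the 10x set.

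Nuclei outside the adipocyte-like class gave like results in Old against Young, with 9 of 10 estimates higher in Old, where 56.0% of 20161 genes were. The median was 1.37 against 0.18 over all genes, and 0 of 10 members were called, where 0% of genes were. At an unadjusted p under 0.05, 3 of the members and 532 of the genes passed. Lep had the largest, 3.66 (SE 1.25, edgeR adjusted p = 0.711), and Plin4 was at -0.10 (SE 0.58). Cidec outside the class stood at 6.16 CPM in Old and 1.13 in Young replicate 1, and at 69.1 and 5.40 CPM in replicate 2. Outside the class in Old replicate 2 means mostly unnamed clusters, which held 4067 of its 4772 nuclei. Of the 438 Cidec UMIs outside the class in the second set, 310 lay in unnamed nuclei and 327 came from Old replicate 2. Whether adipocyte nuclei or their RNA remained among the unnamed nuclei was not tested. In Running against Sedentary 5 of 10 were higher, where 46.2% of genes were, and 0 of 10 were called (0% of genes). At an unadjusted p under 0.05, 2 of the members and 88 of the genes passed. Cidec was at -2.12 (SE 0.88, edgeR adjusted p = 1.0). That difference was -2.95 without Sedentary replicate 2 (edgeR adjusted p = 0.0411) and -0.41 without Sedentary replicate 1.

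Type IIb-like myonuclei were the largest class of each 10x library. In replicate 2 Old and Young had only 37 and 460 of them, against 259 and 1082 Slow-like nuclei. Within Type IIb-like myonuclei, 0 of 10 members were called in Old against Young, where 28 of 15363 genes (0.182%) were. In Running against Sedentary 0 of 10 were called, where 0% of genes were. At an unadjusted p under 0.05 in Old against Young, 2 of the members and 880 of the genes (5.73%) passed. In Running against Sedentary 2 of the members and 379 of the genes did. All 10 estimates were higher in Old, where 43.8% of all genes were, with a median of 1.15 against -0.09 over all genes. In the second set alone, Adipoq (-1.82), Plin4 (-1.11) and Pnpla2 (-2.87) were lower in Old on the log2 scale and the other members were higher. The Type IIb-like nuclei of Old replicate 2 held only 35494 UMIs, so its values rest on few counts. Lpl was at 65.6 CPM in Old and 24.9 in Young replicate 1 and at 254 in Old and 135 in Young replicate 2, and differed by 0.79 on the log2 scale (SE 0.42, edgeR adjusted p = 0.944). Only 9 Lpl UMIs in 37 nuclei stand behind the Old replicate 2 value, and without that library the difference was 0.93. Plin4 differed by 0.14 (SE 0.45) and Pnpla2 by 0.46 (SE 0.60). In Running against Sedentary Lpl differed by -0.20 (SE 0.37) and Plin4 by 0.31 (SE 0.40), with opposite signs of Lpl in the 10x set (-0.65) and the second set (0.36).

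None of the listed partner genes was called in any of the 6 comparisons. Over all nuclei, edgeR adjusted p-values of the lists were at least 0.693 in Old against Young and rounded to 1.0 in Running against Sedentary. In the other adipokine list 4 of 5 estimates were higher in Old with a median of 1.83, and Nnat had the largest at 3.65 (SE 1.23, edgeR adjusted p = 0.693). In triglyceride synthesis 4 of 6 estimates were higher in Old with a median of 0.26, while the 2 genes with the most UMIs were lower, Gpam at -1.08 (SE 0.38) and Lpin1 at -0.99 (SE 0.37). De novo lipogenesis had 8 of 9 estimates higher in Running with a median of 0.90, with Acaca at 0.95 (SE 0.71) and Thrsp at 2.43 (SE 1.15), and 4 of 9 higher in Old with a median of -0.0033. Over all genes, 56.2% of estimates were higher in Old and 46.5% in Running.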

How the data were processed

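Nuclei of gastrocnemius from 4 groups were sequenced in 8 libraries. The authors deposited UMI counts per gene and nucleus, aligned to mm10. Cell Ranger 6.1.2 and Seurat 4.1.1 are named in the submitters' processing notes, and whether intronic reads were counted is not given in the sources used here. The filters kept nuclei between 200 and 6000 genes with less than 6% of UMIs from mitochondrial genes, and 12 mitochondrial and 85 ribosomal genes were left out of 21207 shared symbols. Each set was clustered alone with scanpy 1.11.5 and leidenalg 0.10.2 (2000 variable genes, 30 components, 20 neighbours, resolution 1.0). Clusters were named from 18 marker lists, with limits set after the clusters were seen. Doublets stayed in, and leaving out the 6% of nuclei with the highest doublet scores was an alternative.

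Counts were summed per library over all nuclei, nuclei outside the adipocyte-like class, and Type IIb-like nuclei, and tested in edgeR 4.0.16 (R 4.3.3, quasi-likelihood, Benjamini-Hochberg adjustment over all genes, 8 libraries, library set as a term, adjusted p threshold 0.05). DESeq2 1.42.0 was an alternative. An exact permutation test of 2 against 2 libraries could not pass 0.05. Levels are UMIs per 1000000 UMIs of the sum (CPM), with exact 95% Poisson or Wilson intervals that cover counting error only. Ratios in adipocyte-like nuclei used genes with at least 50 CPM in 1 of the 2 libraries. Replicate numbers name the library set and pair no animals. The members and lists were chosen with earlier results of these data known. Genes named were the members, and of each list the 2 with the most UMIs. 1 gene among those nearest in pattern to a member is not reported here. Other list genes in the lipogenesis comparison, and Gpihbp1, were named after their values were seen. Promoters came from RefSeq on GRCm38.p6, where 8 of 10 members and 8 of 9 lipogenesis genes had an entry. The test scripts were tested on simulated data.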

Additional observations from a re-analysis of the deposited data

How the results depend on the processing

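The number of genes called depended on the fit. With only the 4 libraries of a comparison it was 4 (Old against Young) and 81 (Running against Sedentary) over all nuclei, and 3 and 94 outside the adipocyte-like class. That fit leaves 1 residual degree of freedom. In Type IIb-like nuclei, Old against Young gave 14 with DESeq2, 0 without the library set term (no replicate block), 15 with the members kept in clustering and 0 at resolution 2.0, and Running against Sedentary gave 3 without a filter on low counts and 2 without likely doublets. Leaving out 1 library gave 0 to 8 and 0 to 427 over all nuclei, 0 to 6 and 0 to 190 outside the class, and 0 to 180 and 0 to 93 in Type IIb-like nuclei, with 427 without Sedentary replicate 2 and 180 without Young replicate 2. The cause was not tested.

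Thinned to 500 UMIs, the 10x share in adipocyte-like nuclei was 64.2% for Adipoq, 78.1% for Plin1, 70.8% for Lep, 77.5% for Cidec, 51.2% for Scd1, 21.2% for Lpl, 28.8% for Pnpla2 and 41.4% for Lipe.

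Estimates of members near 0 changed sign, none of them called. In Old against Young over all nuclei, Pnpla2 was -0.0061 without a filter and Lpl -0.25 without the block. Outside the class Lpl was -0.026 without a filter and -0.49 without the block, and in Type IIb-like nuclei Plin4 was -0.29 with 4 libraries and -0.037 at resolution 2.0. In Running against Sedentary over all nuclei, Lpl was 0.042 with RLE scaling, 0.042 with DESeq2, 0.073 without the block and 0.072 with 4 libraries, Lipe 0.035, 0.034 and 0.061 with RLE, DESeq2 and 4 libraries, and Adipoq -0.088 without the block. Outside the class Adipoq was 0.10 (RLE), 0.14 (DESeq2), 0.011 (no filter), 0.10 (4 libraries), 0.12 (members kept) and 0.13 (resolution 2.0), and Lpl 0.0077 (RLE and DESeq2), 0.090 (no block) and 0.030 (4 libraries). In Type IIb-like nuclei Adipoq was 0.084 with DESeq2 and Lpl 0.039 without the block.

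Leaving out 1 library gave these ranges where a sign changed. Old against Young, all nuclei: Plin4 -0.91 to 1.09, Fasn -1.16 to 2.05, Lpl -0.66 to 1.0, Pnpla2 -0.38 to 0.43. Outside: Plin4 -1.28 to 0.64, Scd1 -0.30 to 3.10, Fasn -0.73 to 1.52, Lpl -0.78 to 0.93, Pnpla2 -0.48 to 0.74. Type IIb-like: Adipoq -6.75 to 0.90, Plin4 -2.49 to 1.08, Scd1 -0.0044 to 4.47, Fasn -0.015 to 5.51, Pnpla2 -9.15 to 1.06, Lipe -0.15 to 0.50. Running against Sedentary, all nuclei: Adipoq -0.089 to 2.74, Plin1 -0.50 to 1.10, Plin4 -0.67 to 0.78, Lep -1.24 to 1.72, Scd1 -0.59 to 2.83, Lpl -0.34 to 0.36, Lipe -0.35 to 0.36. Outside: Adipoq -1.29 to 3.37, Plin1 -1.38 to 1.62, Plin4 -0.36 to 1.19, Lep -2.05 to 1.55, Scd1 -0.61 to 2.75, Lpl -0.34 to 0.30, Lipe -0.13 to 0.35. Type IIb-like: Adipoq -1.29 to 2.88, Plin1 -0.93 to 1.93, Plin4 -0.32 to 1.29, Lep -1.41 to 1.30, Scd1 -0.38 to 2.55, Fasn -0.58 to 3.43, Lpl -0.56 to 0.31. With 1 library left in a group, that library is assumed to vary like the others. The Fasn and lipogenesis differences in adipocyte-like nuclei compare 1 library with 1, and the second set is too sparse there to show them.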
